A study of Mus musculus with 8 samples.

Results

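Bile acids are secreted into the duodenum, act on dietary fat along the small intestine and are taken back almost wholly in the terminal ileum. The apical transporter ASBT (Slc10a2) carries them into the enterocyte, the ileal bile acid binding protein (Fabp6) holds them in the cytosol, and the heterodimer OSTα-OSTβ (Slc51a and Slc51b) releases them to portal blood. Inside the cell they bind the nuclear receptor FXR (Nr1h4), which is known to induce Fabp6, Slc51a, Slc51b, the corepressor gene Nr0b2 (SHP) and Fgf15, a hormone that travels to the liver and represses bile acid synthesis. The set described here held 9 of the 55487 genes of the deposited table, picked by symbol: these 7, the surface bile acid receptor gene Gpbar1 (TGR5), and Cyp27a1, a mitochondrial sterol 27-hydroxylase of bile acid synthesis.

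The samples were ileum of irinotecan-treated mice, 4 of genotype Gsdme-/- (Gsdme_KO) and 4 of genotype Gsdme+/+ (WT), named by their columns as KO4, KO5, KO7 and KO8 and as WT3, WT5, WT7 and WT8. Gsdme encodes the pore-forming protein gasdermin E, and irinotecan is a topoisomerase I inhibitor that injures the gut. Strain, age, sex, dose and time of sampling were not given in the sources used here, and no untreated mice were analysed. Whole tissue was sequenced as bulk poly(A) RNA, so fewer cells of a type and less RNA per cell cannot be told apart.

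Libraries carried 15617407 to 23437343 reads in genes. Gsdme itself averaged 349 ± 242 normalized counts in Gsdme_KO and 2851 ± 536 in WT (SD, n = 4 each), without overlap. Within Gsdme_KO it was lower in KO4 (113) and KO5 (187) than in KO7 (634) and KO8 (464). KO4 and KO5 differed from the remaining 6, with B cell genes high and genes of mature enterocytes low. Pan-epithelial markers such as Epcam and Krt8 were present throughout, summing to 308005 to 354690 normalized counts in Gsdme_KO and 307022 to 370237 in WT. Of the 6 large intestine markers Aqp8 and Hoxb13 were at or near 0 everywhere, while the other 4 had a mean of at least 10.

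RefSeq promoter windows (GRCm38.p6, 250 bases before to 50 after the gene start) were found for 8 of the 9 genes, Fgf15 being the one without an entry. The pair printed next, written 5′ to 3′ along the gene's strand, are those of the uptake gene Slc10a2 and of the FXR target Fabp6, since their RNA levels were low together in KO4 and KO5 and ran differently in WT. Capitals mark matches on either strand to AGGTCA followed by 1 base and TGACCT (the inverted repeat bound by FXR) or to GTTAAT followed by 1 base and ATTAAC (the HNF1 motif), each with up to 2 mismatches in its 12 fixed bases. The Slc10a2 window is chr8:5105238-5105537 and the Fabp6 window is chr11:43601513-43601812, both on the minus strand.
Slc10a2: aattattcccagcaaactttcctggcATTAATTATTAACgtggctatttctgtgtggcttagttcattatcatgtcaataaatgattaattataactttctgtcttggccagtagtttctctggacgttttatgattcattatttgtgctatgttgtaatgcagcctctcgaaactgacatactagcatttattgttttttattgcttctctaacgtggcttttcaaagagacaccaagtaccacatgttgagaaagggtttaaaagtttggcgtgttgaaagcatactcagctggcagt
Fabp6: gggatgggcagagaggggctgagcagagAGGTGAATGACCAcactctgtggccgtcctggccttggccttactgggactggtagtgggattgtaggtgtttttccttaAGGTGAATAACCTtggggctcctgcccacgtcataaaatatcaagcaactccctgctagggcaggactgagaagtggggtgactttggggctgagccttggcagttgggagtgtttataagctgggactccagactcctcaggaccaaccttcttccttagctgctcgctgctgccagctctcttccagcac

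The Fabp6 window held 2 such inverted repeats, starting 222 and 142 bases before the gene start, and was the only one of the 8 windows with a match. Over 32851 promoters of the table, 1.14% held one. The Slc10a2 window held an HNF1 match starting 224 bases before the gene start, the Nr1h4 window, placed at an internal RefSeq start, held another, and 1.36% of all promoters did. The single hexamer AGGTCA was present on either strand in Slc51a, Slc51b and Nr1h4, against 16.3% of all promoters, and the LRH-1 motif CAAGGTCA, which contains this hexamer, in 0 of 8 windows against 1.56%. A match describes letters and not binding, and elements outside these windows were not searched.

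None of the 9 genes differed between genotypes at the threshold. Counts below are normalized counts, that is, gene reads divided by 1 size factor per library, and fold changes are log2(normalized count + 1), Gsdme_KO minus WT, from limma fitted over 16352 genes with a mean of at least 10. All 9 passed that filter and 0 reached the limit of 0.05 on the limma p adjusted by Benjamini and Hochberg's method, where 0.00612% of all genes tested did. The limma adjusted p ran from 0.849 to 0.934. At an unadjusted p under 0.05 there were 2 members, Cyp27a1 and Gpbar1, against 4.38% of all genes. edgeR also called 0 of 9 (all genes 0.00612%), with 2 at an unadjusted p under 0.05 (all genes 6.01%). DESeq2 called 0 of 9 (all genes 0.055%), with 1 at an unadjusted p under 0.05 (all genes 6.94%). Without KO4 and KO5 limma called 0 of 9 (all genes 0.00617%). Fold changes were negative for 6 members and positive for 3, with a median of -0.38, against 49.4% negative and a median of 0.00 over all genes tested. The plot of normalized counts by library shows how far members spread within a genotype.

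**Figure D1:**
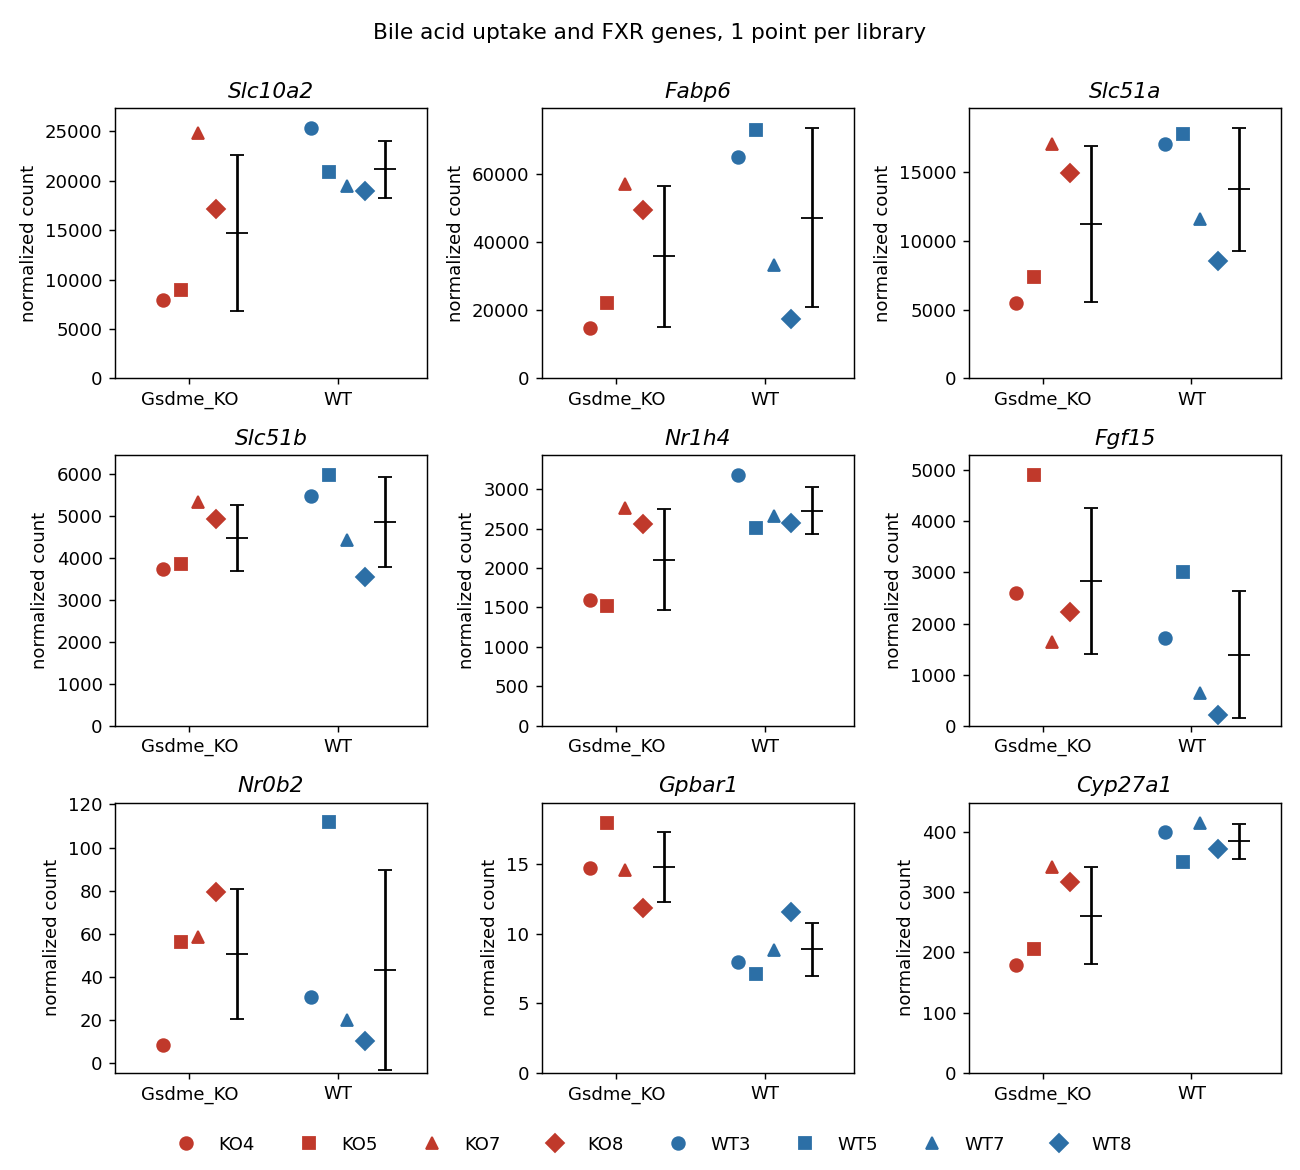
Normalized counts (y axis, linear) of the 9 bile acid genes in each of the 4 Gsdme_KO (red, left) and 4 WT (blue, right) libraries, with the mean and SD of each genotype in black; the SD bar of Nr0b2 in WT reaches below 0. Slc10a2 and Nr1h4 are lowest in KO4 and KO5, while Fgf15 runs from 201 to 3001 within WT.

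Among the transporters, Slc10a2 (ENSMUSG00000023073, chromosome 8, 5083219 to 5105351, minus strand, GRCm38), the entry step, split the Gsdme_KO libraries into pairs. It had 7983 (KO4), 8955 (KO5), 24892 (KO7) and 17117 (KO8) normalized counts in Gsdme_KO and 25319 (WT3), 20889 (WT5), 19476 (WT7) and 18982 (WT8) in WT. KO4 and KO5 lay below every other library, as they did for Slc51a, Nr1h4 and Cyp27a1 and for 13.5% of all genes tested. KO7 lay within the WT range, and KO8 lay somewhat below the lowest WT library, WT8. The WT libraries were close together, with the highest 1.33 times the lowest, against 3.12 times in Gsdme_KO. The log2 fold change was -0.67 (SE 0.34, 95% interval -1.45 to 0.11, limma adjusted p = 0.849), and it was -0.03 without KO4 and KO5.

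Fabp6 (ENSMUSG00000020405, chromosome 11, 43596049 to 43601540, minus strand), the cytosolic carrier, was spread widely in both genotypes. It had 14739 (KO4), 22058 (KO5), 57087 (KO7) and 49312 (KO8) normalized counts in Gsdme_KO and 64986 (WT3), 72985 (WT5), 33261 (WT7) and 17519 (WT8) in WT. WT8 was thus as low as KO4 and KO5 although its Slc10a2 was not. The highest library was 3.87 times the lowest in Gsdme_KO and 4.17 times in WT, and the log2 fold change was -0.40 (SE 0.56, limma adjusted p = 0.901). Without KO4 and KO5 its sign turned, to 0.38 (SE 0.52).

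The subunits of the basolateral exporter followed Fabp6 at smaller amplitude. Slc51a (ENSMUSG00000035699, chromosome 16, 32474504 to 32487879, minus strand), the transporting α subunit, had 5504 (KO4), 7409 (KO5), 17086 (KO7) and 14975 (KO8) normalized counts in Gsdme_KO and 17064 (WT3), 17817 (WT5), 11612 (WT7) and 8537 (WT8) in WT. Slc51b (ENSMUSG00000053862, chromosome 9, 65412714 to 65422955, minus strand), the β subunit needed to bring the complex to the membrane, had 3743 (KO4), 3852 (KO5), 5325 (KO7) and 4923 (KO8) in Gsdme_KO and 5477 (WT3), 5962 (WT5), 4420 (WT7) and 3550 (WT8) in WT. For both, WT8 was the lowest WT library, and the genotypes overlapped. The log2 fold changes were -0.38 (SE 0.39, limma adjusted p = 0.864) for Slc51a and -0.11 (SE 0.19, limma adjusted p = 0.920) for Slc51b. Both turned positive without KO4 and KO5, to 0.28 and 0.11.

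The subunits did not keep a fixed ratio. Per kilobase of merged exons, Slc51a over Slc51b was 0.326 (KO4), 0.427 (KO5), 0.711 (KO7) and 0.674 (KO8) in Gsdme_KO and 0.691 (WT3), 0.663 (WT5), 0.583 (WT7) and 0.533 (WT8) in WT. The ratio in KO4 and KO5 lay below that of all other libraries, as Slc51b was lower by a smaller factor than Slc51a there. Of the exon bases, 17.7% in Slc51a and 12.8% in Slc51b lie opposite exons of Pcyt1a and Rasl12, and the strand setting of the counting is not given in the sources used here. Pcyt1a averaged 2017 normalized counts and Rasl12 47.6 over the 8 libraries.

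The receptor gene Nr1h4 (ENSMUSG00000047638, chromosome 10, 89454234 to 89533585, minus strand) was, like Slc10a2, low in KO4 and KO5 and even within WT. It had 1595 (KO4), 1514 (KO5), 2757 (KO7) and 2560 (KO8) normalized counts in Gsdme_KO and 3174 (WT3), 2507 (WT5), 2662 (WT7) and 2573 (WT8) in WT. Leaving aside KO4 and KO5, the libraries of the genotypes were intermixed. The log2 fold change was -0.42 (SE 0.21, 95% interval -0.89 to 0.05, limma adjusted p = 0.849), and -0.03 (SE 0.12) without KO4 and KO5.

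Fgf15 (ENSMUSG00000031073, chromosome 7, 144896531 to 144900953, plus strand), the mouse counterpart of human FGF19, was not low in KO4 and KO5, unlike the uptake genes. It had 2600 (KO4), 4901 (KO5), 1634 (KO7) and 2225 (KO8) normalized counts in Gsdme_KO and 1719 (WT3), 3001 (WT5), 645 (WT7) and 201 (WT8) in WT. The mean was 2840 ± 1431 in Gsdme_KO and 1392 ± 1248 in WT (SD, n = 4 each), and KO5 was the highest library of all while WT8, with 243 reads, was the lowest. The log2 fold change was 1.53 (SE 0.76, 95% interval -0.20 to 3.26, limma adjusted p = 0.849). It was 0.80 (SE 0.55) without WT8 and 1.07 (SE 0.91) without KO4 and KO5, positive in each. Antisense models lie opposite 24.9% of the Fgf15 exon bases, of which Gm26793 averaged 12.3 normalized counts.

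Nr0b2 (ENSMUSG00000037583, chromosome 4, 133553376 to 133556536, plus strand), whose product SHP represses other nuclear receptors, was low in this tissue. It had 8.30 (KO4), 56.3 (KO5), 58.5 (KO7) and 79.4 (KO8) normalized counts in Gsdme_KO and 30.6 (WT3), 112 (WT5), 19.9 (WT7) and 9.93 (WT8) in WT. These rest on 9 to 94 reads per library. The genotypes overlapped over nearly their whole range, and the log2 fold change was 0.41 (SE 0.85, limma adjusted p = 0.934). Without WT8 it was -0.076.

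Gpbar1 (ENSMUSG00000064272, chromosome 1, 74278550 to 74279624, plus strand), the membrane receptor known from enteroendocrine cells and macrophages, was measured by few reads. It had 14.7 (KO4), 18.02 (KO5), 14.6 (KO7) and 11.9 (KO8) normalized counts in Gsdme_KO and 7.94 (WT3), 7.15 (WT5), 8.85 (WT7) and 11.6 (WT8) in WT. The genotypes did not overlap, but the gap between KO8 and WT8 was 0.277 normalized counts, less than the 0.913 that 1 read is worth in KO8, and the libraries held 6 to 24 reads. The log2 fold change was 0.68 (SE 0.28, unadjusted p = 0.0379, limma adjusted p = 0.849). Enteroendocrine markers (8 of 8 tested, 7 with a negative fold change) summed to 4642 to 5826 in Gsdme_KO and 5453 to 8047 in WT, and macrophage markers (8 of 8 tested, 7 positive) to 6355 to 13271 and 6894 to 9510 in the same order of genotypes. No marker of either list was at 0 in any library, and their part in the Gpbar1 value was not tested.

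Cyp27a1 (ENSMUSG00000026170, chromosome 1, 74713574 to 74737892, plus strand) had the smallest unadjusted p of the 9. It had 179 (KO4), 206 (KO5), 342 (KO7) and 318 (KO8) normalized counts in Gsdme_KO and 401 (WT3), 350 (WT5), 416 (WT7) and 372 (WT8) in WT. All Gsdme_KO libraries lay below all WT libraries, KO7 by 7.77 normalized counts (281 reads in KO7 and 294 in WT5). The log2 fold change was -0.61 (SE 0.21, 95% interval -1.09 to -0.13, unadjusted p = 0.0185, limma adjusted p = 0.849), lower in 4 of 4 libraries. Without KO4 and KO5 it was -0.22 (SE 0.12). Genotypes without overlap were thus found for 2 of the 9 members, beside 2.5% of all genes tested. Gpbar1 was the higher, where 1.31% of all genes were, and Cyp27a1 the lower, where 1.19% were.

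Compared per kilobase of merged exons, the levels spanned several orders of magnitude. Fabp6 led with 74737 ± 42922 normalized counts per kilobase in Gsdme_KO and 98513 ± 54659 in WT (SD, n = 4 each), and ranked from 3 to 20 among 14396 protein-coding genes in the 8 libraries. Slc51b followed at 6292 ± 1107 in Gsdme_KO and 6844 ± 1524 in WT. Slc10a2 (3549 ± 1906 in Gsdme_KO and 5098 ± 695 in WT) and Slc51a (3516 ± 1766 and 4302 ± 1390 in the same groups) did not differ beyond their spread. Nr1h4 and Fgf15 came next, at 915 ± 279 and 929 ± 468 in Gsdme_KO and 1185 ± 132 and 455 ± 408 in WT, and did not differ beyond their spread in Gsdme_KO. Fgf15 over Nr1h4 was above 1 in KO4 (1.23) and KO5 (2.44) and below 1 in KO7 (0.446) and KO8 (0.655), as in all WT libraries (0.0589 to 0.902). The side of 1 on which WT5 fell depended on the length used. Per kilobase of the longest transcript, Fgf15 stood at 1658 and Nr1h4 at 1245 in WT5, so that it too was above 1. Cyp27a1 stood at 120 ± 37.2 in Gsdme_KO and 177 ± 13.5 in WT, above Nr0b2 (44.7 ± 26.6 and 38.1 ± 41.2) and Gpbar1 (13.8 ± 2.34 and 8.26 ± 1.80). Fgf15 moved most in rank, from 550 in KO5 to 8067 in WT8.

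**Figure D2:**
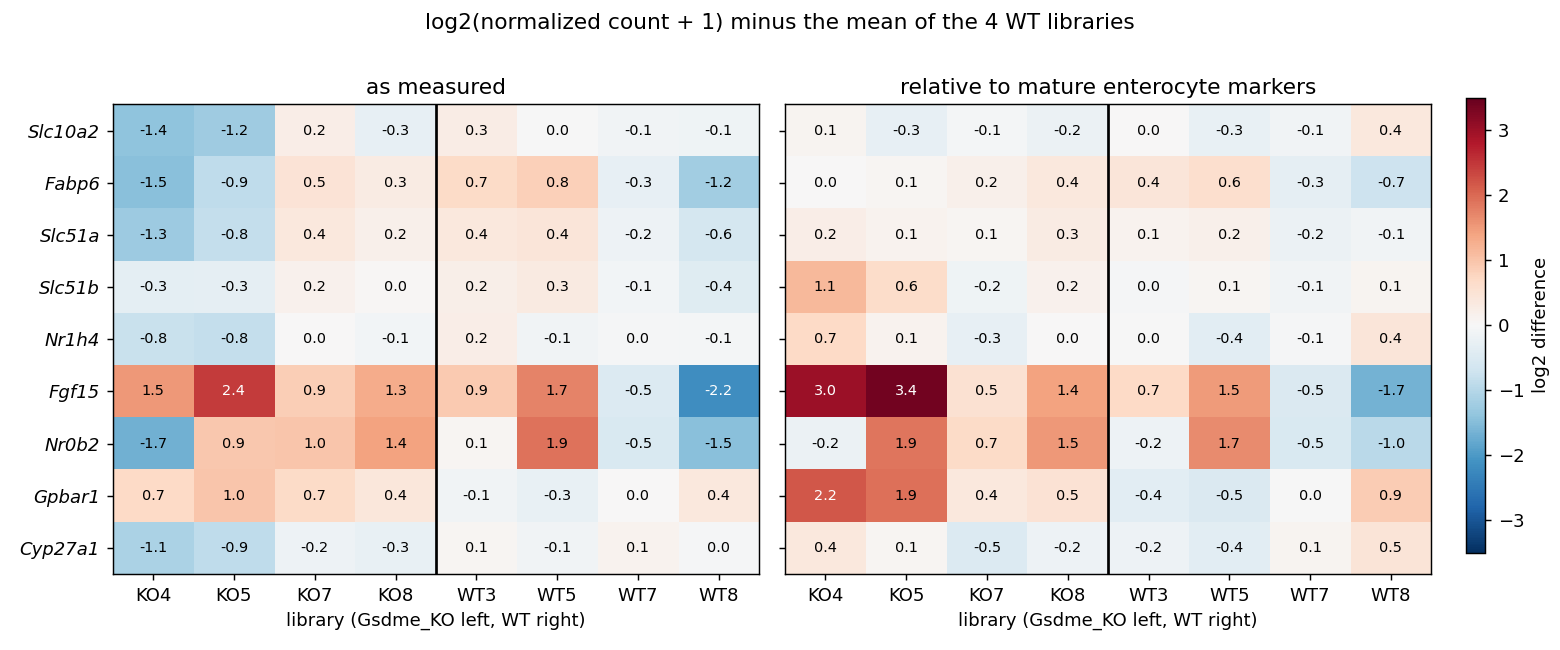
Heat maps of log2(normalized count + 1) minus the WT mean for each gene (rows) and library (columns, Gsdme_KO left of the line), as measured and after subtracting the mean log2 level of 17 mature enterocyte markers in the same library. Slc10a2 in KO4 is at -1.40 as measured and at 0.08 relative to these markers, and Fgf15 in KO4 is at 1.52 and 3.00. The subtraction raises every gene in KO4, where the marker score is -1.48.

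The low values in KO4 and KO5 were set beside cell markers of the same libraries. Mature enterocyte markers such as Anpep and Apoa1 (17 of 17 tested, 16 with a negative log2 fold change) summed to 218550 in KO4 and 309890 in KO5, and to 726025 in KO7 and 543507 in KO8, against 438697 to 731409 in WT. B cell markers (8 of 8 positive) summed to 9233 (KO4), 5237 (KO5), 312 (KO7) and 236 (KO8) in Gsdme_KO, against 204 to 308 in WT, where Cr2 was at 0 in WT7. Of the 8 B cell markers limma and edgeR called 0 and DESeq2 called 3, among its 9 calls over all genes. T cell markers had positive fold changes in 7 of 7 (median 0.91), 4 at an unadjusted p under 0.05 by limma, and 0 were called by limma, edgeR or DESeq2. Pan-epithelial scores lay between -0.06 and 0.02 in Gsdme_KO and between -0.17 and 0.08 in WT around the WT mean. What part these shifts have in the member values was not tested.

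Relative to the mean log2 level of the enterocyte markers of the same library, the uptake genes were no longer low in KO4 and KO5. The marker score subtracted was itself at -1.48 in KO4 and -0.95 in KO5 around the WT mean. By construction this raises every gene of these libraries, whether or not it changed. Slc10a2 then lay at 0.08 (KO4), -0.28 (KO5), -0.07 (KO7) and -0.20 (KO8) around the WT mean, with WT from -0.26 to 0.36, so that KO5 was just below the lowest WT library. Fabp6 lay between 0.01 and 0.38 in Gsdme_KO and between -0.71 and 0.59 in WT. Slc51b, at -0.35 (KO4) and -0.30 (KO5) as measured, then lay at 1.13 and 0.65, above a WT range of -0.13 to 0.09. Gpbar1 also lay above its WT range of -0.51 to 0.88, at 2.17 (KO4) and 1.92 (KO5). Nr1h4 did so in KO4 only, at 0.71 with WT up to 0.43. Fgf15 stood further from the rest, at 3.00 in KO4 and 3.39 in KO5, with 0.54 in KO7 and 1.40 in KO8, against -1.66 to 1.48 in WT.

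Refitted over all genes on this scale, the log2 fold change was -0.12 for Slc10a2, 0.16 for Fabp6, 0.17 for Slc51a, 0.44 for Slc51b, 0.14 for Nr1h4 and -0.05 for Cyp27a1. Fgf15 had 2.08 (SE 0.63, 95% interval 0.76 to 3.40, limma adjusted p = 0.489), Gpbar1 had 1.24 and Nr0b2 had 0.96. This scaling adds the same 0.55 to the fold change of every member and puts the median over all genes at 0.56, and 6 of the 9 members lay below that median, as 6 did below the median of 0.00 before it. Scaled on the pan-epithelial markers instead, every member kept the sign of the fit on all libraries, Slc10a2 having -0.65 and Fgf15 1.55.

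**Figure D3:**
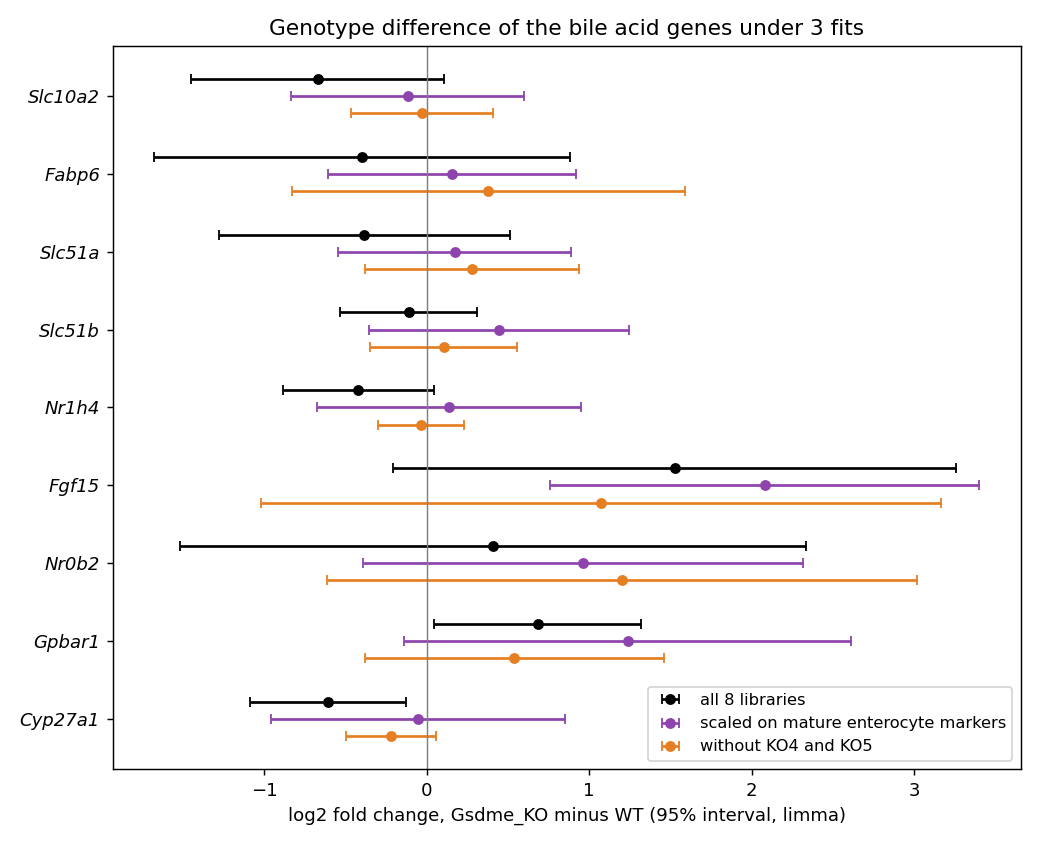
Log2 fold change of each gene, Gsdme_KO minus WT, with its 95% interval from limma, for all 8 libraries (black), after scaling on mature enterocyte markers (purple) and without KO4 and KO5 (orange). Slc10a2 is at -0.67, -0.12 and -0.03, while Fgf15 is positive in all 3, at 1.53, 2.08 and 1.07.

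Within WT a second pattern ran through the genes known to be induced by FXR. Fabp6, Slc51a, Slc51b, Fgf15 and Nr0b2, 5 of the 9, were all highest in WT5, then WT3, then WT7, and lowest in WT8, an order shared by 10.3% of all genes tested. The order was picked out after the values were seen and carries no test. The amplitude differed greatly, the highest WT library being 14.9 times the lowest for Fgf15, 11.3 times for Nr0b2, 4.17 times for Fabp6, 2.09 times for Slc51a and 1.68 times for Slc51b. Nr1h4 (1.27 times) and Cyp27a1 (1.19 times) varied little in WT and ran in other orders. Ranges of at least 10 times in WT were found for 1.38% of all genes tested.

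WT5 and WT8 also differed in region and cell markers. Proximal small intestine markers had a mean log2 score of 0.78 above the WT mean in WT5 and -0.55 in WT8, and lay between -1.02 (KO4) and 0.35 (KO7) in Gsdme_KO. Large intestine markers (4 of 6 tested) went the other way, at -0.32 in WT5 and 0.57 in WT8, with 0.26 in WT3 and -0.51 in WT7. They lay between -2.50 (KO4) and -0.02 (KO8) in Gsdme_KO. Of the proximal markers, Lct was at 0 in KO4, against 55.5 to 403 in WT, and this zero lowers the proximal score of KO4. Fold changes were positive for 3 of the 8 proximal markers tested and negative for 5. Stromal markers stood at 0.41 in WT8 and between -0.20 and -0.11 in the other WT libraries, and the enterocyte markers at -0.51 in WT8. The bearing of these on the FXR targets was not tested.

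**Figure D4:**
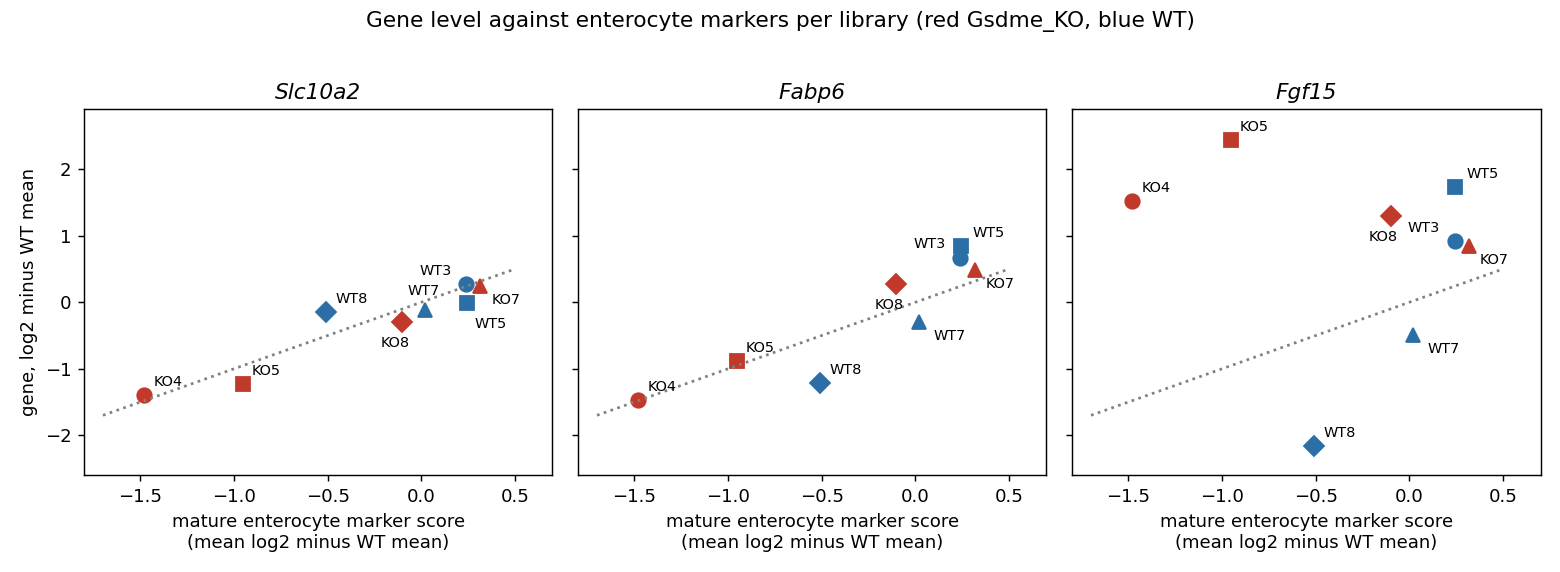
Level of Slc10a2, Fabp6 and Fgf15 (y axis, log2 minus the WT mean) against the mean log2 level of 17 mature enterocyte markers (x axis, minus the WT mean), 1 point per library, Gsdme_KO red and WT blue; the dotted line marks equal change. Slc10a2 in KO4 (-1.40 at a marker score of -1.48) lies on the line, WT8 lies below it for Fabp6, and KO4 and KO5 lie far above it for Fgf15.

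Ratios between members made the contrast plain, as a description chosen after the values were seen. Fgf15 over Slc10a2, per kilobase, was 0.442 (KO4), 0.743 (KO5), 0.0891 (KO7) and 0.177 (KO8) in Gsdme_KO and 0.0922 (WT3), 0.195 (WT5), 0.0450 (WT7) and 0.0144 (WT8) in WT. KO4 and KO5 exceeded every other library, and KO7 and KO8 lay within the WT range. Fabp6 over Slc10a2 was 16.0 to 25.0 in Gsdme_KO, inside the 8.0 to 30.3 of WT.

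Genes of most similar pattern were taken as those with the smallest root mean square difference in centred log2 level over the 8 libraries, members left out. For Slc10a2 they were Ppfia3 (0.114), Sfxn1 (0.115), a mitochondrial serine transporter, and Dpp4 (0.121), a brush border peptidase, where the median gene was at 0.639. For Fabp6 they were Gm15200 (0.204), Vnn1 (0.239), a pantetheinase, and Acot4 (0.255), a peroxisomal thioesterase. For Fgf15 they were Igkv9-120 (0.513), Ighv8-12 (0.519) and Rnf183 (0.533), the first pair being antibody variable segments whose reads can be shared with similar segments. The nearest members were Cyp27a1 for Slc10a2 (0.245), Slc51a for Fabp6 (0.292) and Nr0b2 for Fgf15 (1.19). The median gene was at 0.879 from Fabp6 and at 1.39 from Fgf15, so that Nr0b2 was little nearer to Fgf15 than that. With Pearson correlation as the measure, 0 of the 3 nearest genes were shared for each of these 3.

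The wider pathway was read from 5 further lists, 49 genes of which 40 were tested. None were called by limma, edgeR or DESeq2. At an unadjusted p under 0.05 there were 2 by limma (all genes 4.38%), 2 by edgeR (6.01%) and 3 by DESeq2 (6.94%), near the shares over all genes. By limma 31 of the 40 had a negative log2 fold change (all genes 49.4%), and without KO4 and KO5 14 did (all genes 48%).

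Of the nuclear receptor partners and transcription factors, 9 of 12 were negative (median -0.22). Hnf4a, the master regulator of enterocyte genes, averaged 13782 ± 2000 normalized counts in Gsdme_KO and 15230 ± 1700 in WT, and Vdr, the vitamin D receptor that also binds lithocholic acid, 3275 ± 1261 and 4521 ± 470 in the same groups (SD, n = 4 each; limma adjusted p = 0.849 for each). Malrd1 (Diet1), which promotes FGF15 production, had 1105 (KO4), 1174 (KO5), 3425 (KO7) and 2810 (KO8) in Gsdme_KO, against 2110 to 3588 in WT. Fgfr4, the hepatic FGF15 receptor gene, had 204 ± 34.4 in Gsdme_KO and 211 ± 46.2 in WT, and its coreceptor gene Klb was under the filter.

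Among other bile acid and conjugate transporters 2 of 5 tested were negative. Abcg2, an apical exporter of sulphated conjugates, averaged 5598 ± 1212 normalized counts in Gsdme_KO and 6737 ± 938 in WT. Abcc2, an apical exporter of conjugates, ran in the WT order of the FXR targets, with 729 (KO4), 1976 (KO5), 4243 (KO7) and 3863 (KO8) in Gsdme_KO and 5445 (WT5), 3982 (WT3), 2454 (WT7) and 1685 (WT8) in WT. Abcc3, a basolateral exporter named after its values were seen, had 1700 to 2518 in Gsdme_KO and 1340 to 1670 in WT, without overlap, and its log2 difference was 0.39 (SE 0.14, limma adjusted p = 0.849). Of the 40 pathway genes tested only Abcc3 was without overlap, beside 2.5% of all genes tested.

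Of the synthesis and hydroxylation genes 14 of 20 were tested and 12 were negative (median -0.29). The liver genes Cyp7a1 and Cyp8b1 were at or near 0 in all libraries. Scp2, a peroxisomal sterol carrier and thiolase, averaged 6916 ± 3151 normalized counts in Gsdme_KO and 8782 ± 1813 in WT, and Cyp3a13, a cytochrome P450, 5118 ± 954 and 6078 ± 1036 in the same groups (SD, n = 4 each; limma adjusted p = 0.849 for each). Of 7 other genes reported to respond to FXR in intestine, 6 were negative (median -0.14). Sdc1, a heparan sulphate proteoglycan, averaged 5698 ± 1146 in Gsdme_KO and 5978 ± 932 in WT, while Nos2, inducible nitric oxide synthase, had 7674 in KO4 and 936 to 1322 in the other Gsdme_KO libraries, against 1205 to 2941 in WT.

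Other ileal enterocyte genes lay further below WT than the uptake genes in KO4 and KO5. Cubn, the ileal receptor for vitamin B12 bound to intrinsic factor, had 167 (KO4), 1002 (KO5), 10480 (KO7) and 7408 (KO8) normalized counts in Gsdme_KO, against 3633 to 10658 in WT. Its partner Amn had 233, 396, 1626 and 1176 in the same Gsdme_KO libraries, against 1003 to 1653 in WT. The most abundant proximal markers, Ada and Slc40a1, averaged 5234 ± 1720 and 944 ± 170 in Gsdme_KO and 7212 ± 3335 and 1035 ± 348 in WT. Cyp2c55 of the large intestine list had 35.9 (KO4), 724 (KO5), 5595 (KO7) and 5288 (KO8) in Gsdme_KO, against 2264 to 5119 in WT. None of these lists had a called gene by limma, edgeR or DESeq2.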

How the data were processed

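Bulk poly(A) RNA-seq of ileum gave 8 libraries, 4 Gsdme_KO and 4 WT, and strand-specific preparation is stated per the labels' protocols. GRCm38, HISAT2, featureCounts from Subread, SAMtools and DESeq2 are named per the submitters' processing notes, without versions or a strand setting. The deposited table holds normalized signal: each gene's count over a size factor of its library. Dividing by 1 step per library returned whole reads for 100% of values (within 0.01), and on these edgeR called 1 gene and DESeq2 9. The column headers and the labels number the libraries differently (KO4, KO5, KO7 and KO8 in the headers, 1 to 4 in the labels), so columns were tied to a genotype only, and p-values measure the spread between these samples, which may be technical in part.

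Gene positions and merged exon lengths came from GENCODE M21 (GRCm38) and promoters from RefSeq (GRCm38.p6). The test was limma-trend (limma 3.58.1, R 4.3.3) across all genes on log2(normalized count + 1), with a mean of at least 10 and Benjamini-Hochberg adjustment. It was tested on simulated data. Those counts were drawn for each gene separately, so the simulation does not cover shifts that many genes share, as in KO4 and KO5. For Gsdme alone the test was an exact permutation over 70 assignments, two-sided. edgeR 4.0.16 and DESeq2 1.42.0 on recovered reads, other scalings, filters and pseudocounts, and leaving out libraries were alternatives. The 9 members, the lists and the alternatives were chosen with earlier results of these data known. Named genes were the members, the 2 most abundant genes of each list and the 3 genes of nearest pattern for each of Slc10a2, Fabp6 and Fgf15. The result of 1 gene that this rule names is not reported here. Where others are named, the text says so or gives them as marker examples. Intervals and read numbers cover counting and sample spread only, and no limit rests on reads as independent molecules.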

Additional observations from a re-analysis of the deposited data

How the results depend on the processing

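Across 20 alternative settings (19 for Nr0b2 and Gpbar1, which fell under a mean of 50), 0 of the 9 members were called in any. Slc10a2, Fgf15, Gpbar1 and Cyp27a1 kept their sign in all settings run, with log2 fold changes from -0.98 to -0.03, 0.80 to 2.10, 0.51 to 1.24 and -0.76 to -0.05. Scaling on mature enterocyte markers adds 0.55 to the fold change of each member by construction, which turned the sign of Fabp6 (0.16), Slc51a (0.17), Slc51b (0.44) and Nr1h4 (0.14) and left 2 members negative in place of 6. Against the all-gene median of 0.56 on that scale, 6 members still lay below. Leaving out KO4 and KO5 reversed Fabp6 (0.38), Slc51a (0.28) and Slc51b (0.11) and left 3 negative. Without WT8 Nr0b2 reversed to -0.076, its values over fits that left out 1 library running from -0.076 to 1.11. Single libraries moved values both ways: Fabp6 ran from -0.04 without KO4 to -0.80 without WT8, Slc51a from -0.09 without KO4 to -0.64 without KO7, Slc51b from -0.0012 without WT5 to -0.25 without WT8, and Slc10a2 from -0.43 without KO4 to -0.98 without KO7. The cause of the changes on leaving out libraries was not tested.

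Over all genes 1 was called higher and 0 lower. The higher count was 0 with either marker scaling and without KO4 and KO5, 8 by DESeq2, and 0 to 1 when 1 library was left out. The lower count was 1 with enterocyte scaling, by DESeq2 and without KO4 and KO5. The Gsdme difference was -3.32 (two-sided exact permutation test, p = 0.0286, which is the least that 4 against 4 can give) and lay between -3.71 and -2.88 in the other fits. With the longest transcript in place of merged exons Fgf15 stood at 1569 per kilobase in Gsdme_KO, and Nr1h4 at 1356 and Cyp27a1 at 203 in WT. Reads of 6 to 94 per library limit Gpbar1 and Nr0b2. No paired analysis was possible because the headers' numbers could not be tied to the replicate numbers of the labels.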
